A study of Mus musculus with 5 samples.

Results

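The genes described here encode the collagens, the laminins and the integrins, and they were followed in mouse liver across 5 feeding groups. Members were all genes whose only annotated symbol on the array is that of a collagen alpha chain (Col, a number, a and a number), a laminin alpha, beta or gamma chain (Lama, Lamb, Lamc), an integrin alpha subunit (Itga) or a numbered integrin beta subunit (Itgb). There were 67 such genes of 12393 with 1 symbol, and they comprised 9 fibrillar collagens, 8 basement membrane collagens, 19 other collagens, 10 laminin chains, 14 integrin alpha subunits and 7 integrin beta subunits. Each gene was represented by the probe set, a group of short oligonucleotides against 1 transcript, with the highest mean log2 signal over the arrays.

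Livers were pooled within each group and 1 Affymetrix array was hybridised per group, so 5 arrays were available. All mice were C57B/L, with a labelled age of 8 weeks, and were maintained for 2 weeks before feeding. The groups received standard chow for 1 week, an atherogenic diet (a feed used to raise blood cholesterol) for 1 week, chow for 10 weeks, the diet for 10 weeks, or the diet for 10 weeks with atorvastatin in its closing 3 weeks. Atorvastatin, a statin, blocks an early step of cholesterol synthesis. The source name of the 1-week diet sample says chow whereas its title and protocols say diet, and it was grouped by its title. The labels do not give the number of livers in a pool, the diet's composition or the atorvastatin dose. With 1 array per group there was no spread between replicates and no test, and every ratio below describes these pools alone.

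Fibrillar collagens, mainly types I, III and V in liver, assemble into the rope-like fibres of scar tissue and are made by stellate cells and portal fibroblasts. Collagen IV and the laminins form the sheet-like networks of basement membranes, which are continuous around bile ducts and vessels but sparse along the liver sinusoids. Integrins are heterodimers of an alpha and a beta subunit that bind these matrix proteins at the cell surface, and some of them serve instead for adhesion of leukocytes or platelets.

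The 300-base windows around the annotated start of 4 of these genes are shown because the results turn on them. Col1a2 and Col3a1 encode major fibril chains with higher signals on both 10-week diet arrays, whereas Col4a1 and Col4a2 lie head to head and share their start region but had different profiles. The windows run from 250 bases before to 50 bases after the start, are taken from RefSeq on build GRCm38.p6, and are read 5′ to 3′ on the strand of the gene. Col1a2 lies at chr6:4505368-4505667 on the plus strand and Col3a1 at chr1:45311288-45311587 on the plus strand. Capitals in this pair mark 3 motifs searched on both strands, which do not overlap one another. The CCAAT box was searched by the letters of its name, the GC box as GGGCGG, and the TATA box by the letters TATAAA.
Col1a2: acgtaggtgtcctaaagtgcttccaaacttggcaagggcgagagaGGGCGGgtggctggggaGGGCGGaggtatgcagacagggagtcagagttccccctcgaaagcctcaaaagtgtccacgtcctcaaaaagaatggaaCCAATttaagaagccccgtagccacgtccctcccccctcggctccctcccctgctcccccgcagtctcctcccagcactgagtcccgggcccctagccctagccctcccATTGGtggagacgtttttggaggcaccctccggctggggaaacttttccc
Col3a1: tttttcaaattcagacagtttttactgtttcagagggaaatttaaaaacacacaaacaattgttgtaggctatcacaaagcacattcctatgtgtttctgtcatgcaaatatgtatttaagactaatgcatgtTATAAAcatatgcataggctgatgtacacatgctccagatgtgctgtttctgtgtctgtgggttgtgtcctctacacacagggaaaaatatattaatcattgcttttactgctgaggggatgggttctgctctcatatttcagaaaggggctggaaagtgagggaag
The Col1a2 window held 2 CCAAT boxes and 2 GC boxes, and the Col3a1 window held 1 TATAAA match and 0 of the other motifs. Of 32851 such windows in the RefSeq table, 37.4% held a CCAAT box, 35.7% a GC box and 13.6% a TATA box. Among the 64 windows of genes in these families, covering 58 gene symbols, the shares were 26.6%, 54.7% and 7.81%. These matches describe the letters in the window only.

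Col4a2 lies at chr8:11312555-11312854 on the plus strand and Col4a1 at chr8:11312777-11313076 on the minus strand. Capitals mark the 78 bases that both windows hold, which are the same DNA read from opposite strands.
Col4a1: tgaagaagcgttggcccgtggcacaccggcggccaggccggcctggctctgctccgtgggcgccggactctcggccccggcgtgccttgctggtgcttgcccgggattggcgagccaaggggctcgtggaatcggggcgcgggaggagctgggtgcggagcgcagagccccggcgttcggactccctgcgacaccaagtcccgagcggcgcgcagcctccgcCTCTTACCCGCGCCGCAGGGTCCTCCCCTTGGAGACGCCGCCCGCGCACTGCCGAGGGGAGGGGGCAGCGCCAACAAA
Col4a2: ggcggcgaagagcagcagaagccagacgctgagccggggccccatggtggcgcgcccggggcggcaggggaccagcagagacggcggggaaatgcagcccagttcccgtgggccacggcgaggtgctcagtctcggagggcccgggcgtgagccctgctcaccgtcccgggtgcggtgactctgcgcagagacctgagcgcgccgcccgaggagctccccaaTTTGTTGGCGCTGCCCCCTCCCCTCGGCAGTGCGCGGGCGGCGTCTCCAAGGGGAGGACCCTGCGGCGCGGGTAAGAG
G and C made up 74.0% of the Col4a1 window and 73.7% of the Col4a2 window, against 61.0% for Col1a2 and 37.7% for Col3a1. In the RefSeq gene order, 6 pairs of collagen genes of these families are direct neighbours. They include all 6 collagen IV chains in 3 pairs, Col3a1 with Col5a2, and Col6a1 with Col6a2.

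Signals are MAS5 values on a linear scale, and a floor of 138.9, the 40th percentile of all signals, was set before ratios were taken. Measured in a comparison means that at least 1 of the 2 signals exceeded this floor, and a ratio with 1 array at the floor is a lower bound, written as at least N-fold. By their chosen probe sets, 46 of the 67 genes lay above the floor on at least 1 array and 25 on all 5. Medians over measured genes cannot stand for the others, because a dim gene enters only through the array where it is bright. All 6 hepatocyte markers exceeded the floor, and their sum was highest on the 10-week chow array (294226, against 137733 to 203882). The 18S ribosomal RNA control of the atorvastatin array had a geometric mean signal of 13944 against 437 to 2185 elsewhere. The spike-in controls of the 10-week chow array had a geometric mean of 7497 against 1336 to 2604. Since that array is the reference for the 10-week diet, ratios to the 1-week chow array are given for the main results. The 1-week chow array also differs from the 10-week diet arrays in feeding time. In these ratios diet cannot be told apart from feeding time or from any difference in age that goes with it.

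**Figure D1:**
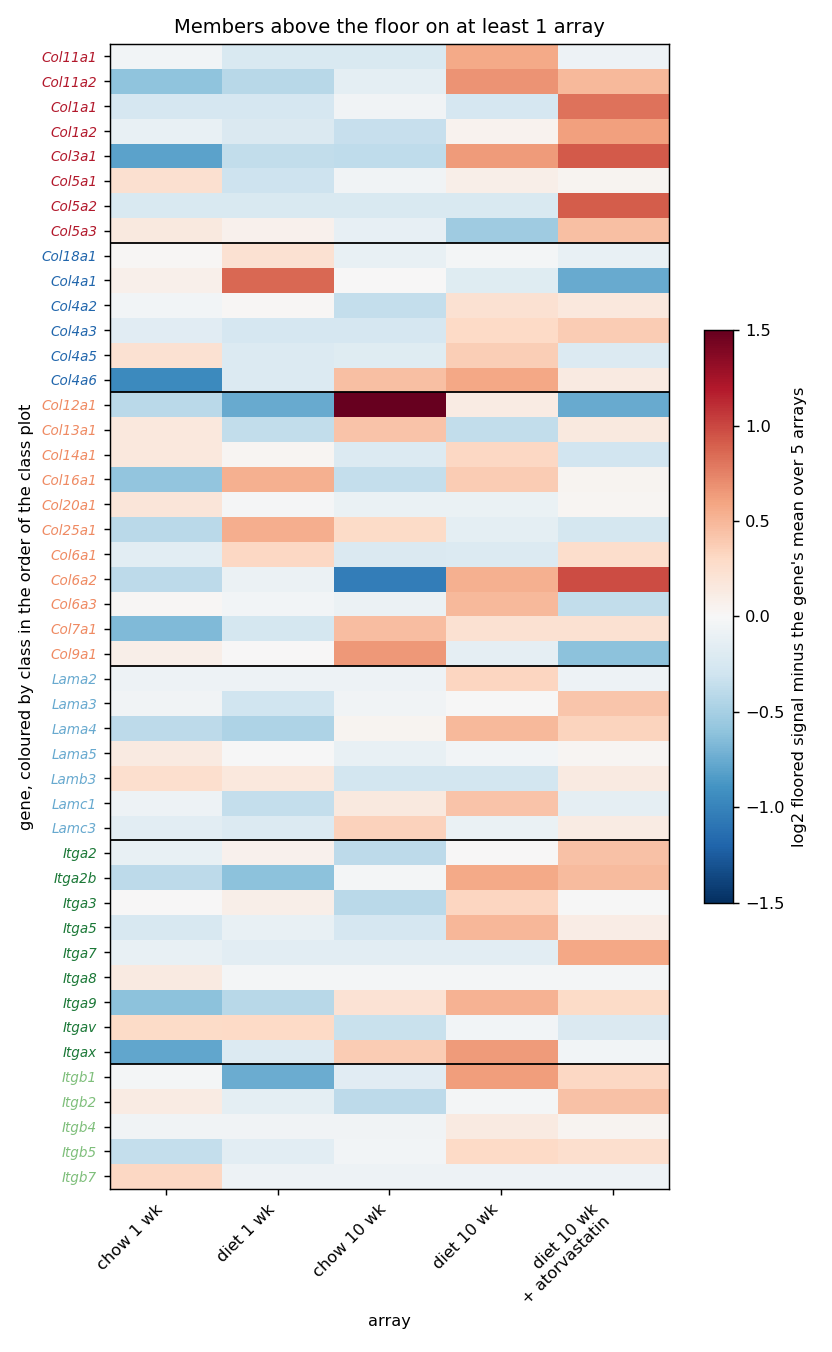
Each row is 1 of the 46 genes above the floor on at least 1 array, each column 1 array, and the colour is the log2 floored signal minus the mean of the gene over the 5 arrays, with the colour scale ending at 1.5 in either direction. Col1a1, Col1a2, Col3a1, Col5a2, Col5a3 and Col6a2 have their highest value on the atorvastatin array, and Col12a1 stands out on the 10-week chow array.

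Among the fibrillar collagens, Col3a1 was higher after 10 weeks of diet than on either chow array. Col3a1 encodes the chain of collagen III, which accompanies collagen I in reticular fibres and early scars. Its signal was 254 on chow at 1 week, 342 on the diet at 1 week, 341 on chow at 10 weeks, 690 on the diet at 10 weeks and 835 with atorvastatin. Both 10-week diet arrays therefore lay above the other 3 arrays. The ratio of diet to chow at 10 weeks was 2.02-fold (log2 1.02), and with the 1-week chow array in its place it was 2.72-fold (log2 1.44). The second Col3a1 probe set was dim, with 137 on chow and 81.6 on the diet at 10 weeks, both below the floor, so it gave no ratio. The call ended when all probe sets were averaged (log2 0.51) or a pseudocount replaced the floor (log2 0.79).

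Col1a2 encodes the second chain of collagen I, the main protein of mature scar. Its signal was 633 and 590 on chow and diet at 1 week, 540 and 713 on chow and diet at 10 weeks, and 1052 with atorvastatin. The order of the arrays placed the atorvastatin array first and the 10-week diet array next, with ratios to 10-week chow of 1.95-fold and 1.32-fold. Against the 1-week chow array these were 1.66-fold and 1.13-fold, all short of 2-fold. The other Col1a2 probe set was above the floor on the 10-week diet array alone (183) and, against arrays at the floor, gave log2 ratios of 0.40 for diet over chow and -0.40 for atorvastatin over diet.

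Col1a1, the partner chain of Col1a2, was dim in these livers. Its signal was 118, 128, 160 and 85.4 on the 1-week chow, 1-week diet, 10-week chow and 10-week diet arrays, and 292 with atorvastatin. Atorvastatin on the diet was at least 2.10-fold higher than the diet alone, since the diet signal lay under the floor, and 1.82-fold higher than 10-week chow. The other Col1a1 probe set stayed below the floor on all 5 arrays. The common collagen I trimer holds both chains, and these 2 genes shared their highest array but not their order on the others.

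Collagen V regulates the start and the width of collagen I fibrils. Its Col5a2 chain had a signal of 304 with atorvastatin and 17.2 to 131 on the other 4 arrays, all below the floor, which makes it at least 2.19-fold higher than on the diet alone. The second Col5a2 probe set was below the floor throughout, reading 107 with atorvastatin and 17.1 to 41.0 elsewhere. Col5a3 had 370 with atorvastatin against 186 on the diet, just under 2-fold (log2 1.00), and 247 to 298 on the other 3 arrays. Col5a1 ran from 314 to 459 with its highest value on 1-week chow and showed no such difference (log2 -0.05 for atorvastatin over diet). Col3a1 and Col5a2, which lie side by side on chromosome 1, thus both had their highest signal on the atorvastatin array, but Col5a2 was below the floor on the 10-week diet array where Col3a1 was high.

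Collagen XI chains are minor fibril components known mostly from cartilage. Col11a2 had 58.3, 158 and 190 on the 1-week chow, 1-week diet and 10-week chow arrays, 335 on the diet at 10 weeks and 294 with atorvastatin. It was 1.76-fold higher on the diet than on chow at 10 weeks and at least 2.41-fold higher than on 1-week chow. Col11a1 was near the floor, at 101 to 242, with its highest value on the 10-week diet array. Col2a1, the cartilage collagen, was below the floor on all 5 arrays.

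**Figure D2:**
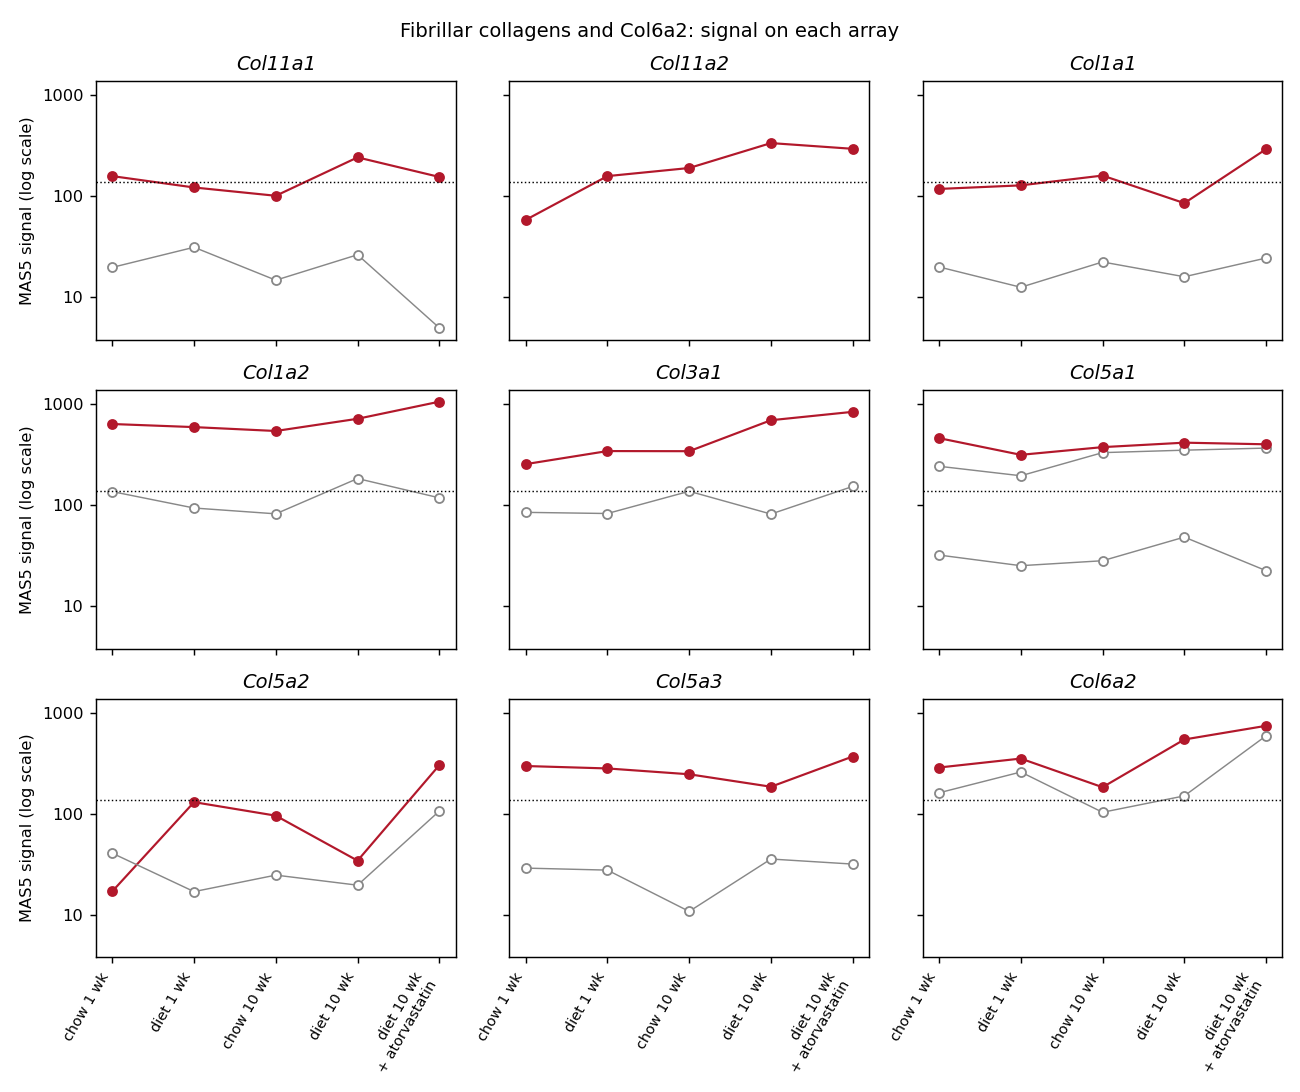
Each panel plots the MAS5 signal, on a log axis, of all probe sets of 1 gene on the 5 arrays, with filled red points for the chosen probe set, open grey points for others, lines joining the values of a probe set and a dotted line at the floor of 138.9. For Col3a1 the chosen probe set reads 341 on 10-week chow and 690 on the 10-week diet, and for Col6a2 both probe sets are highest on the atorvastatin array, at 744 and 593.

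Over the class, 7 fibrillar collagens were measured for the diet at 10 weeks, and 1 of them, Col3a1, was past 2-fold, as were 6.65% of all genes. Their median log2 ratio was 0.40 against 0.05 for all measured genes, with 5 positive and 2 negative. For atorvastatin on the diet against the diet, 8 were measured, 2 were past 2-fold higher (Col1a1 and Col5a2), and 4.27% of all genes were. The median was 0.42 against -0.02 for all genes, but 0.11 with the floor at its 60th percentile setting and 0.15 with probe sets averaged, and both calls ended under each of these settings. For atorvastatin on the diet against chow at 10 weeks, all 8 measured were positive, and the median was 0.75 against 0.03. Of these, 2 were past 2-fold higher (Col3a1 and Col5a2), with 5.51% of all genes past it either way. Col5a2 and Col11a1 were measured there through the atorvastatin array alone, so they could only be positive. Against 1-week chow the median was 0.90, with 6 of 8 positive, where Col1a1, Col5a2 and Col11a2 could only be positive. The 10-week value depends on dim members: raising the floor to the 60th percentile gave 0.11, and averaging all probe sets or a pseudocount gave 0.46. After 1 week of diet the median was -0.09 against -0.03, with 0 of 6 past 2-fold (2.30% of all genes). The highest of the 5 signals fell on the atorvastatin array for 5 of 8 fibrillar collagens above the floor, against 22.0% of all genes. Among these 5, Col5a2 was above the floor on that array alone, so its place was set by the floor. Col1a1 was above it on 2 arrays.

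Of the collagens outside the fibrillar and basement membrane classes, Col6a2 had the highest ratio of diet to chow at 10 weeks. It encodes a chain of collagen VI, which forms beaded filaments around cells. Its signal was 288 and 353 on chow and diet at 1 week, 184 and 545 on chow and diet at 10 weeks, and 744 with atorvastatin. The 10-week chow value was the lowest and both 10-week diet values the highest. The ratio of diet to chow at 10 weeks was 2.97-fold, but 1.90-fold against the 1-week chow array, and the second probe set gave a log2 ratio of 0.12. The chosen probe set carries the x suffix of sets that may cross-hybridise. With atorvastatin the ratio to 10-week chow was 4.05-fold and to 1-week chow 2.59-fold. The second probe set read 162, 260, 104, 151 and 593 in the same array order as above, so its highest array was also that of atorvastatin.

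The other collagen VI chains did not follow. Col6a1, the neighbour of Col6a2 on chromosome 10, had 265 and 267 on chow and diet at 10 weeks and 371 with atorvastatin, while Col6a3 had 356, 529 and 291. Col6a1 was 1.01-fold and Col6a3 1.49-fold higher on the diet than on chow.

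Among fibril-associated collagens, which sit on the surface of fibrils, Col12a1 stood at 819 on the 10-week chow array against 177, 34.9, 257 and 54.6 on 1-week chow, 1-week diet, 10-week diet and atorvastatin. It was therefore 3.19-fold lower on the diet than on chow at 10 weeks and at least 5.90-fold lower with atorvastatin. Against 1-week chow the diet ratio turned to 1.45-fold higher, and the chow arrays themselves differed by 4.62-fold. Col14a1 ran from 485 to 736 on the 5 arrays, with no pair past 2-fold. Col16a1 had 302 on the diet against 56.9 on chow at 1 week, at least 2.18-fold higher, and was the only gene of the families past 2-fold after 1 week. Against the 10-week chow array (163) the same diet array was 1.85-fold higher. Col9a1 had 360 on 10-week chow and 149 with atorvastatin, 2.42-fold lower, and 1.63-fold lower against 1-week chow.

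Among the rest, Col7a1, the anchoring fibril collagen of skin, had 113 on 1-week chow and 304 on 10-week chow, at least 2.19-fold higher, and 183 to 258 on the diet arrays. The transmembrane collagens Col13a1 and Col25a1 ran from 134 to 241 and from 304 to 587, and Col20a1 from 34.7 to 169, with no comparison past 2-fold. Col10a1, Col17a1, Col19a1, Col22a1, Col26a1, Col8a1, Col9a2 and Col9a3 were below the floor on all 5 arrays, with signals from 3.6 to 132.

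In the basement membrane class 0 of 6 measured collagens and 0 of 7 measured laminins were past 2-fold for the diet at 10 weeks. Of all genes 6.65% were, and classes of this size cannot tell 0 from that share. The median log2 ratio was 0.33 for the collagens and 0.07 for the laminins, against 0.05 for all genes. For atorvastatin on the diet against the diet, 0 of 6 collagens and 0 of 7 laminins were past 2-fold (4.27% of all genes). The collagen median was -0.27 with 1 positive and 5 negative. The fibrillar median there was 0.42, or 0.11 to 0.15 under the settings named above, and it includes Col1a1 and Col5a2, which were measured through the atorvastatin array alone. The difference between the classes was not tested.

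Col4a1 and Col4a2 encode the 2 chains of the common collagen IV trimer. Col4a1 read 490 on chow and 843 on the diet at 1 week, 467 and 409 on chow and diet at 10 weeks, and 274 with atorvastatin. Its highest array was thus the 1-week diet array and its lowest the atorvastatin array, with both 10-week diet arrays below the other 3. Col4a2 had 306 and 317 at 1 week, 244 and 366 at 10 weeks, and 350 with atorvastatin, with both 10-week diet arrays above the other 3. The log2 ratio of atorvastatin to 10-week chow was -0.77 for Col4a1 and 0.52 for Col4a2, although the capitals in their windows above show the shared start region. The second Col4a1 probe set read 105, 204, 316, 120 and 76.1 in order of 1-week chow, 1-week diet, 10-week chow, 10-week diet and atorvastatin. It was highest on 10-week chow and above the floor there and on the 1-week diet alone, so it gave no order among the other arrays.

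The other collagen IV pairs were dimmer. Col4a3 had 202 on the diet and 214 with atorvastatin and 91.5 to 146 elsewhere, while its neighbour Col4a4 was below the floor throughout. Col4a6 had 44.7 on 1-week chow and 233 to 403 on the other arrays, so 10-week chow was at least 2.65-fold higher than 1-week chow. Its neighbour Col4a5 ran from 114 to 208. Mutations of the Col4a3, Col4a4 and Col4a5 chains cause the kidney disease Alport syndrome in humans, and these chains are not typical of liver.

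**Figure D3:**
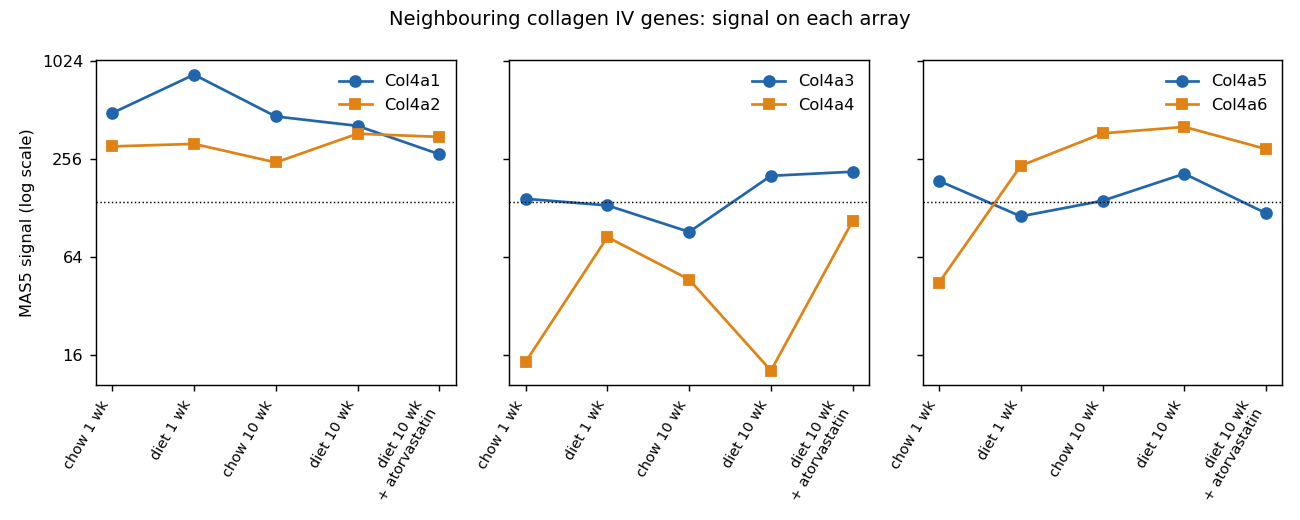
Each panel plots the MAS5 signal, on a log axis, of a pair of neighbouring collagen IV genes on the 5 arrays, with a dotted line at the floor of 138.9. On the left, Col4a1 reads 843 on the 1-week diet and 274 with atorvastatin while Col4a2 lies between 244 and 366.

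Col18a1, a basement membrane proteoglycan collagen whose end fragment is endostatin, is a known hepatocyte product. Its signal was 5895 and 6816 at 1 week, 5385 and 5730 at 10 weeks, and 5408 with atorvastatin, a spread of 1.27-fold between lowest and highest. A second probe set ran from 3128 on 1-week chow to 5553 on 10-week chow, a wider spread. The related Col15a1 was below the floor on all arrays.

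Laminins are trimers of 1 alpha, 1 beta and 1 gamma chain. Lama5, the alpha chain of adult vessel and duct laminins, had 1067 and 972 at 1 week, 902 and 944 at 10 weeks and 990 with atorvastatin, within 1.18-fold over all 5 arrays. Lamc1, the widespread gamma chain, ran from 203 to 349 with its highest value on the 10-week diet array. Lama4, an alpha chain of vessel laminins, had 269 on the diet and 243 with atorvastatin against 97.0 to 197 on the other arrays. Lama2 was above the floor on the 10-week diet array alone, at 184. Lama3 ran from 154 to 252 (183 on 10-week chow, 188 on the 10-week diet), Lamb3 from 131 to 200 and Lamc3 from 215 to 314. The chosen probe sets of Lama1, Lamb1 and Lamb2 were below the floor on every array. Another Lamb1 probe set read 150 on the 10-week diet array and 12.4 to 67.5 on the others. After 1 week of diet all 6 measured laminins had negative ratios by their chosen probe sets, from -0.29 to -0.05 on the log2 scale. Of all measured genes 46.1% were positive there, with a median of -0.03. A second Lamc3 probe set went the other way, with 36.0 on chow and 185 on the diet at 1 week (log2 at least 0.41).

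Of the 21 integrin subunits, 11 were measured for the diet at 10 weeks by their chosen probe sets. Of these 0 passed 2-fold, as did 6.65% of all genes. All 11 had a positive log2 ratio to chow, from 0.19 to 0.79, against 54.3% of all measured genes. The median was 0.37 against 0.05 for all genes. Itga2 and Itgb4 were measured through the diet array alone (70.4 and 50.8 on chow), so their ratios could only be positive. Other bright probe sets of Itgb1 and Itga5 had negative ratios, and a dimmer Itgav probe set gave -0.03. The subunits below the floor on both arrays gave no ratio. With the 1-week chow array as the reference, 9 of 14 were positive with a median of 0.25, and 2 were past 2-fold, Itga9 (2.20-fold) and Itgax (at least 2.67-fold), where 6.34% of all genes were. After 1 week of diet 7 of 13 were positive with a median of 0.01.

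Itgb1, the beta subunit shared by most collagen, laminin and fibronectin receptors, had 1698 and 1033 on chow and diet at 1 week, 1545 and 2679 on chow and diet at 10 weeks, and 2144 with atorvastatin. The 10-week diet array was the highest and the 1-week diet array the lowest, 2.59-fold apart. The ratio to chow was 1.73-fold higher at 10 weeks and 1.64-fold lower at 1 week. A second bright Itgb1 probe set gave -0.31 for the diet at 10 weeks and -0.60 at 1 week, so the probe sets disagreed at 10 weeks and shared their direction at 1 week.

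Itgb5, which pairs with Itgav to bind vitronectin, had 1118 and 1286 at 1 week, 1389 and 1765 at 10 weeks, and 1705 with atorvastatin. Both 10-week diet arrays lay above the other 3, and all 4 of its probe sets had positive ratios for the diet at 10 weeks, from 0.35 to 0.95 on the log2 scale. Itgav had 1314 and 1327 at 1 week, 857 and 1051 at 10 weeks and 924 with atorvastatin, so that its chosen probe set was higher on both 1-week arrays than on any 10-week array. Another Itgav probe set ran the other way, with 129 and 87.0 at 1 week and 195 to 208 at 10 weeks. Itga5, the fibronectin receptor alpha subunit, had 308 on chow and 520 on the diet at 10 weeks (1.69-fold) and 312 to 397 on the other arrays. The second Itga5 probe set gave the opposite direction, -0.95.

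Of the collagen and laminin receptor alpha subunits, Itga2 ran from 70.4 on 10-week chow to 249 with atorvastatin, and Itga3 from 198 on 10-week chow to 327 on the 10-week diet. Itga9, a receptor for tenascin and other ligands, had 168 on 1-week chow and 370 on the 10-week diet. Itga7, a laminin receptor of muscle, had 231 with atorvastatin and 29.8 on the diet, a bound of at least 1.66-fold. Itga8 was above the floor on 1-week chow alone (156). Itgb4, the partner of Itga6, was above the floor on the 10-week diet (158) and atorvastatin (148) arrays alone. Itga6 itself and Itgb6 were below the floor on all arrays.

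Leukocyte and platelet integrins were mostly dim. Of 7 leukocyte subunits 3 exceeded the floor on any array. Itgb2, the beta subunit that pairs with Itgal, Itgam and Itgax, had 337 and 281 at 1 week, 237 and 305 at 10 weeks, and 423 with atorvastatin. Itgax, an alpha subunit of dendritic cells and some macrophages, had 97.9 on 1-week chow, 206 on the 1-week diet, 310 on 10-week chow, 371 on the 10-week diet and 231 with atorvastatin, and was at least 2.23-fold higher on 10-week than on 1-week chow. Itgb7 was above the floor on 1-week chow alone (181), and Itga4, Itgae, Itgal and Itgam were below it everywhere.
Itga2b, the platelet fibrinogen receptor alpha subunit, had 404 and 347 at 1 week, 520 and 788 at 10 weeks and 740 with atorvastatin. Both 10-week diet arrays were above the other 3, and its partner Itgb3 read 16.9 to 24.2, below the floor. Of 5 platelet markers, Gp5 had the same split, with 324 and 376 on the 10-week diet arrays against 121 to 202, whereas Pf4 ran from 259 to 339 and Gp1bb from 353 to 455 without it. Gp9 was highest on 10-week chow (265), and Ppbp was below the floor throughout. The summed signal of the 5 was 1006 and 1034 at 1 week, 1308 and 1101 on chow and diet at 10 weeks, and 1298 with atorvastatin, and the part of platelets in the Itga2b values was not tested.

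**Figure D4:**
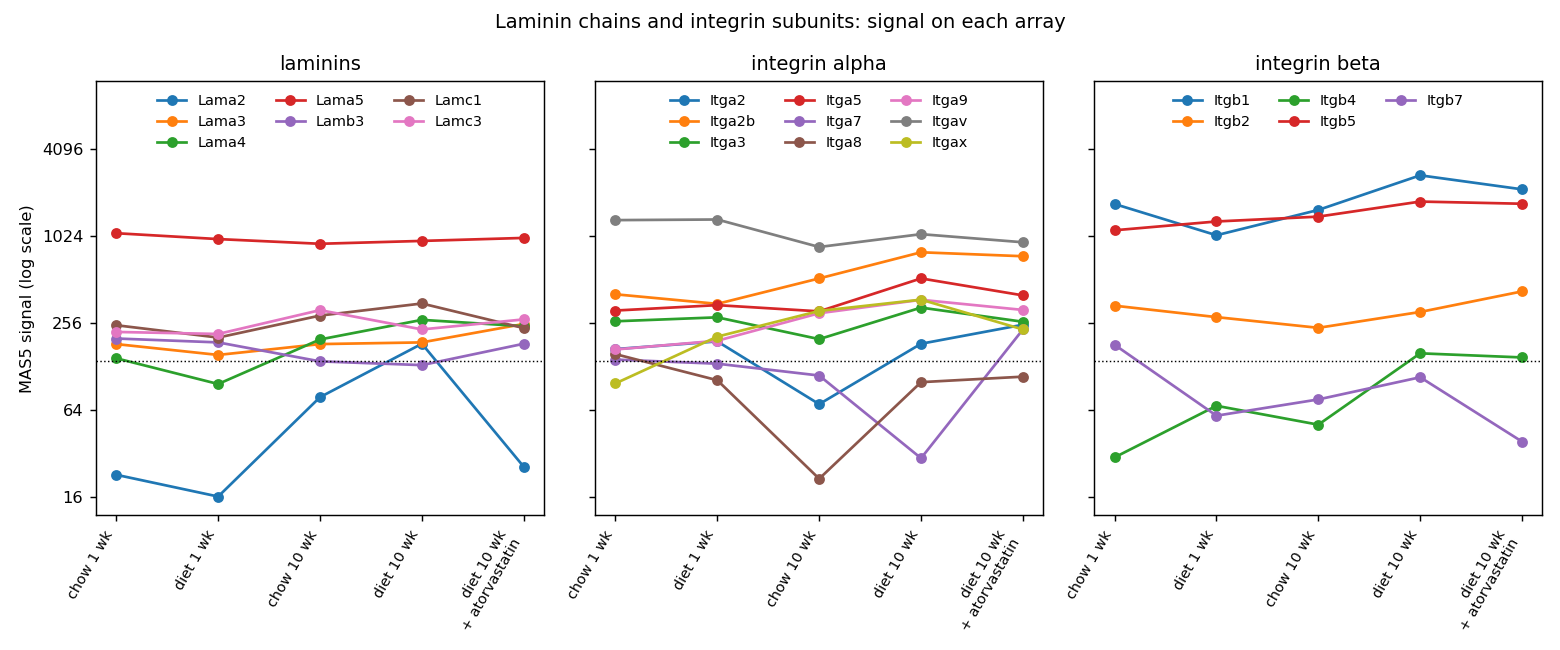
Panels plot the MAS5 signal, on a log axis, of laminin chains, integrin alpha subunits and integrin beta subunits above the floor on at least 1 array, with lines joining the values of a gene and a dotted line at the floor of 138.9. Lama5 is nearly level at 902 to 1067, and Itgb1 runs from 1033 on the 1-week diet to 2679 on the 10-week diet.

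Over all the families, 41 genes were measured for the diet against chow at 10 weeks, and 3 were past 2-fold, 2 higher (Col3a1 and Col6a2) and 1 lower (Col12a1). That is 7.32%, near the 6.65% of all 9232 measured genes. Against the 1-week chow array 5 of 44 were past 2-fold, all higher (Col3a1, Col11a2, Col4a6, Itga9 and Itgax), against 6.34% of all genes. Among them, Col11a2, Col4a6 and Itgax were below the floor on 1-week chow, so they could only be higher. Col3a1 was the only gene past 2-fold with either chow array. After 1 week of diet 1 of 42 was past 2-fold, against 2.30%.

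For atorvastatin on the diet against the diet, 2 of 44 were past 2-fold, against 4.27% of all genes. Against 10-week chow the atorvastatin array had 5 of 43 past 2-fold, 3 higher (Col3a1, Col5a2 and Col6a2) and 2 lower (Col12a1 and Col9a1), against 5.51%. Against 1-week chow it had 6 of 45, all higher and all collagens (Col11a2, Col1a1, Col3a1, Col4a6, Col5a2 and Col6a2), against 4.80%. Of these, Col11a2, Col1a1, Col4a6 and Col5a2 were below the floor on 1-week chow, so they could only be higher. Between the chow arrays 4 of 43 were past 2-fold, all higher at 10 weeks (Col12a1, Col4a6, Col7a1 and Itgax), against 4.39%. Here Col4a6, Col7a1 and Itgax were below the floor on 1-week chow and could only be higher. The count for the diet at 10 weeks (3 of 41) was thus no higher than that between the chow arrays. These comparisons share arrays: the 10-week chow array and the 10-week diet array enter 3 of them each.

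By their chosen probe sets, both 10-week diet arrays lay above the other 3 arrays for 14 of 46 genes (30.4%). The share was 17.0% of all 9818 genes above the floor on any array. Among these 14 were 3 fibrillar collagens (Col1a2, Col3a1 and Col11a2) and 6 integrins (Itga2b, Itga5, Itga9, Itgb1, Itgb4 and Itgb5). The others were Col6a2, Col4a2, Col4a3, Lama3 and Lama4. Itgb4 was above the floor on the 10-week diet arrays alone, so its place among the 14 was set by the floor. Lama3 had this order by 188 on the diet against 183 on chow. Second probe sets of Col1a2, Col6a2 and Itga5 and the second bright Itgb1 probe set did not have it. The second Itga5 probe set read 79.3 and 103 on the 10-week diet arrays and 175 to 269 elsewhere. Among other Itgb5 probe sets, that reading 1864 and 1857 on these arrays had it and the rest did not. Both 10-week diet arrays lay below the other 3 for 2 of 46, Col4a1 and Col9a1, against 11.6%. The integrins were also highest on the 10-week diet array in 8 of 14 cases, Itgb4 among them, against 27.3% of all genes.

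**Figure D5:**
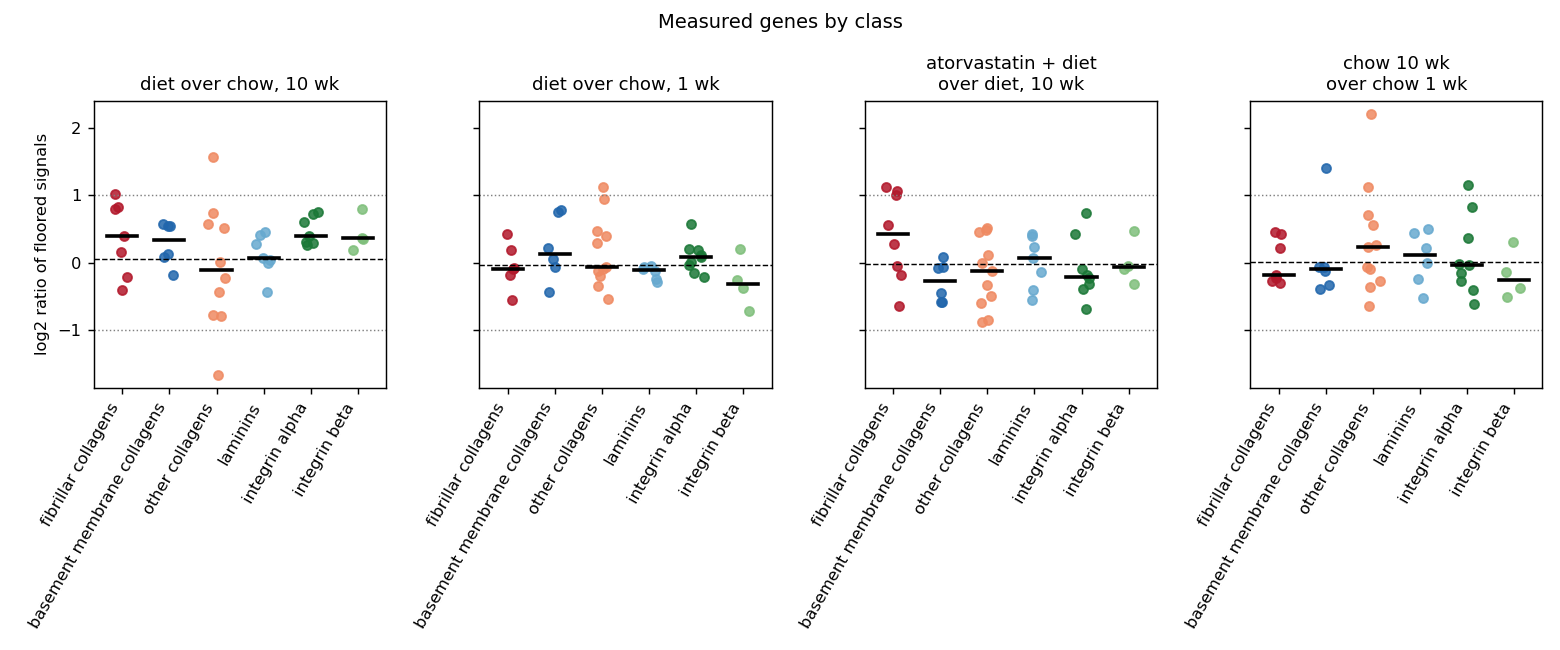
Each point is the log2 ratio of 1 measured gene, grouped by class, in 4 comparisons, with thick bars at class medians, a dashed line at the median of all genes and dotted lines at 2-fold. For atorvastatin over diet the fibrillar median lies at 0.42 and the basement membrane collagen median at -0.27. The 11 measured integrins lie above 0 for the diet over chow at 10 weeks. Among them, Itga2 and Itgb4 were measured through the diet array alone.

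Genes that process, bind or degrade collagen gave the following counts. Of 16 measured genes of collagen processing and crosslinking, 2 were past 2-fold higher on the 10-week diet, Serpinh1, the collagen chaperone (250 on chow, 595 on the diet), and Tgm2, a transglutaminase (1182 and 3063), against 6.65% of all genes. Against 1-week chow Serpinh1 was 2.39-fold and Tgm2 1.99-fold higher, so that 1 of the calls remained. With atorvastatin Serpinh1 was at 218, below all other arrays, where the fibrillar chains were mostly highest. Lox, a lysyl oxidase that crosslinks collagen, had 152 on 10-week chow, 30.2 on the diet and 227 with atorvastatin, and the prolyl hydroxylase P4ha1 had 182, 181 and 160.
Of 10 measured genes of collagen breakdown and its inhibitors, 0 were past 2-fold for the diet at 10 weeks (6.65% of all genes). For atorvastatin over the diet 2 were (4.27% of all genes), both inhibitors of matrix metalloproteinases. Timp2 had 314 on the diet and 675 with atorvastatin, and Timp3 had 137 and 721, at least 5.19-fold apart, where 1-week chow had 370 and 538. After 1 week of diet Timp3 was at 247, 2.18-fold below chow. Timp1, the inhibitor best known from fibrosis, had 96.0 on 10-week chow, 176 on the diet and 221 with atorvastatin. Of 13 measured genes of fibrogenic signalling, 3 were past 2-fold for the 10-week diet, against 6.65% of all genes. Smad7, an inhibitor of TGF-beta signalling, had 217 on chow and 547 on the diet, and Pdgfb, a growth factor for stellate cells, 53.9 and 285, at least 2.05-fold apart. Ccn2, a connective tissue growth factor, was lower, at 719 and 350. Against 1-week chow the ratios were 1.84-fold for Smad7 and 1.79-fold for Pdgfb, both short of the threshold, and the genes past 2-fold were Ccn2 and the TGF-beta receptor Tgfbr1, both lower. After 1 week of diet the TGF-beta co-receptor Tgfbr3 was 2.18-fold below chow (148 and 323). Tgfb1, the main fibrogenic cytokine, had 178 on 10-week chow, 136 on the diet and 290 with atorvastatin, at least 2.09-fold higher than on the diet. Acta2, a marker of activated stellate cells, had 585, 707 and 563 on the same arrays.
In the lists of other basement membrane components (7 measured), other matrix and integrin ligands (14 measured) and integrin adaptors (14 measured), 0 genes were past 2-fold for the diet at 10 weeks. Of all genes 6.65% were. Nid1, which links laminin to collagen IV, had 230 on chow and 456 on the diet (log2 0.99, and 0.23 against 1-week chow). The heparan sulfate proteoglycan Hspg2 had 1400 and 1805, fibronectin Fn1 14787 and 9343, vitronectin Vtn 30045 and 27073, and the integrin-linked kinase Ilk 801 and 1099.

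Markers of the cells that could supply these transcripts also differed between arrays. Summed over 11 stellate cell and fibroblast markers, the signal was 11709 and 9824 on chow and diet at 1 week, 6969 and 8969 on chow and diet at 10 weeks and 9876 with atorvastatin, with Pdgfrb and Hand2 below the floor throughout. It was thus lowest on 10-week chow and highest on 1-week chow. Dcn, the decorin gene, alone gave 2838 to 6845 of it. Summed over 10 endothelial markers it was 6711 and 5362 at 1 week, 4918 and 7693 on chow and diet at 10 weeks, and 6302 with atorvastatin. Over 8 macrophage and Kupffer cell markers it was 11690 and 10440 at 1 week, 7487 and 13403 on chow and diet at 10 weeks, and 18949 with atorvastatin. Among the 10-week arrays, the stellate and the macrophage sums both had the array order of Col1a2, Col3a1 and Col6a2, lowest on chow and highest with atorvastatin. Not all markers shared it. For the 10-week diet over chow, 6 of 9 measured stellate markers were positive (median log2 0.11), while Gfap (-0.69), Cygb (-0.70) and Lum (-0.41) were negative. Of 8 macrophage markers, 7 were higher with atorvastatin than on the diet, and Adgre1 was lower (707 and 1085). All 3 sums were lower on 10-week than on 1-week chow, so the size of any excess on the diet depends on the chow array used. On the 10-week diet the endothelial and macrophage sums exceeded both chow arrays. The stellate sum exceeded that of 10-week chow alone. Hepatocyte markers summed to 164873 and 137733 at 1 week, 294226 and 203882 on chow and diet at 10 weeks, and 202927 with atorvastatin. On the 10-week diet 0 of the 6 hepatocyte markers had a positive ratio to 10-week chow (median log2 -0.51), whereas 4 of 6 were positive against 1-week chow (0.39). Of 4 cholangiocyte markers, Krt7, Epcam and Sox9 were below the floor on all arrays. Sums over 4 neutrophil markers were 459 to 861 and over 8 lymphocyte markers 945 to 1158. Both sums were lowest on 10-week chow and highest on the 10-week diet. They include signals below the floor, and the lymphocyte marker Nkg7 was above the floor on the 10-week diet array alone (242). For the 10-week diet over chow, 3 of 4 measured neutrophil and 4 of 6 measured lymphocyte markers were positive. Cxcr2 (log2 -0.08), Cd3e (-0.76) and Gzma (-0.29) were negative. The part of these cell types in the results was not tested, and in pooled liver RNA more cells of a type and more RNA per cell cannot be told apart.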

How the data were processed

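Liver RNA of 5 groups was measured on 1 array each, from pooled livers per the labels. The deposited values are intensities on a linear scale, 1 for each probe set of an array, made with MAS5 per the submitters' processing notes. As tested on the deposited table, the 2% trimmed mean is 500.2 on every array. Detection calls were not used here, and the MAS5 version is not given in the sources used here.

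Arrays were rescaled to a common trimmed mean, 64 control probe sets were left out, signals were floored at the 40th percentile (138.9) and log2 ratios were taken. The platform annotation pairs 20380 of 22690 probe sets with a single gene symbol and 691 with several, and 1606 are unnamed here. The genes here have 114 probe sets, and 34 of the 67 genes have just 1. All their symbols match the RefSeq table of GRCm38.p6, used for names and gene order. No 2 arrays were duplicates (Spearman 0.911 to 0.946). With 1 array per group no test was made, intervals need replicates, and the number of arrays limits the precision. Between the chow arrays 95% of genes lay within 1.94-fold. The ratio code was tested on simulated data with as many raised as lowered genes.

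Genes, lists, the counts by array order and the sequences shown were chosen with earlier results of these data known. Named are genes of the families past 2-fold in any comparison, the fibrillar and basement membrane collagens, laminins and integrins above the floor on any array, and from each related list the genes past 2-fold for the diet at 10 weeks, the diet at 1 week or atorvastatin over the diet, plus up to 4 others. The other collagens below 2-fold (Col6a1, Col6a3, Col13a1, Col14a1, Col20a1 and Col25a1) and the genes never above the floor were named in addition. Alternatives were quantile normalization, no rescaling, a lower (20th percentile) and a higher (60th percentile) floor, a pseudocount, averaging a gene's probe sets, dropping x and s probe sets, a 1.5-fold rule and the other chow array. Computations used Python 3.11.15, numpy 2.4.6 and pandas 2.3.3.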

Additional observations from a re-analysis of the deposited data

Results flagged for a closer look

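The median diet ratios of 3 classes had opposite signs at 10 weeks and 1 week, and the differences were not tested. They were 0.40 and -0.09 for fibrillar collagens (difference 0.49), 0.07 and -0.11 for laminins (0.18), and 0.36 and -0.32 for integrin beta subunits (0.68). The medians of all measured genes, 0.05 and -0.03, also differed in sign. Only 4 integrin beta subunits were measured each time, and not the same 4. Itgb4 and Lama2 entered at 10 weeks through the diet array alone and could only be positive. Itgb7 entered at 1 week through the chow array alone and could only be negative. The fibrillar median at 1 week was 0.01 after quantile normalization and 0.02 with a lower floor, so its sign depended on the setting.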

How the results depend on the processing

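Of 81 recomputed counts and medians, 53 stayed within 1.5 times of the count or within a tolerance derived from the chow pair for the median, 26 moved beyond it and 2 moved beyond it with a change of sign. No rescaling, quantile normalization and leaving out x and s probe sets moved none of them. The counts of genes past 2-fold for the 10-week diet (3), the 1-week diet (1), atorvastatin over diet (2), atorvastatin over chow (5) and the chow pair (4) became 12, 9, 10, 13 and 13 under the lower floor (20th percentile) and 12, 5, 9, 13 and 8 under the 1.5-fold rule. Under the higher floor (60th percentile) they were 0 for the 1-week diet, 0 for atorvastatin over diet, 3 for atorvastatin over chow and 1 for the chow pair. A pseudocount gave 2 for the 1-week diet, 3 for atorvastatin over chow and 2 for the chow pair, and averaging probe sets gave 1 for the 10-week diet, 1 for atorvastatin over diet and 2 for atorvastatin over chow. With the 1-week chow array the 10-week diet count was 5. The fibrillar median for atorvastatin over diet (0.42) was 0.11 under the higher floor and 0.15 after averaging probe sets, and that for atorvastatin over chow (0.75) was 0.11 under the higher floor and 0.46 with a pseudocount or after averaging. For the chow pair it turned from -0.18 to 0.10 under the lower floor and 0.05 after averaging. Col12a1 turned from -1.67 to 0.54 with the 1-week chow array, because the chow arrays differ. Col3a1 for the 10-week diet ran from 0.51 (averaged probe sets) to 1.44. Col6a2 stayed past 2-fold in 8 of 8 settings for atorvastatin over chow, but in 4 of 8 for the 10-week diet over chow. The latter call ended with the higher floor, averaged probe sets, x and s probe sets left out, and the 1-week chow array. The cause of the other shifts was not tested. Signals near the floor limit most of these genes, 21 of which were never above it on their chosen probe set. No paired analysis was possible because each group is 1 array.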
